A study of Mus musculus with 18 samples.

Results

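Untreated mouse embryonic fibroblasts (MEFs) with a knock-out of IKK2 were compared with untreated wild-type (WT) MEFs. Of the 18 RNA-seq libraries in the study, 4 entered this comparison, 2 from the IKK2 KO line and 2 from the WT line, taken by the genotype and the untreated label of their columns. All cells were immortalised MEFs grown in DMEM with 10% FBS, and neither group had received TNFα. The remaining libraries came from the same lines after 45 or 90 min of TNFα at 10 ng/ml, and from a p65 KO line, with 2 libraries in each of the 9 groups. Each genotype was 1 line, so a difference of genotype and any other difference between the lines cannot be told apart. The labels do not say that the 2 libraries of a group came from separate cultures, so the p-values measure the spread between these libraries, which may be technical.

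IKK2, encoded by Ikbkb, is the catalytic kinase of the canonical NF-κB pathway. Together with IKK1 and the scaffold NEMO it phosphorylates the IκB proteins, which hold NF-κB dimers in the cytoplasm, and their destruction releases p65, p50 and c-Rel to the nucleus. In fibroblasts the pathway is known for its rapid induction by TNF and for its targets, which include chemokines, adhesion molecules, survival genes and its own inhibitors. A non-canonical branch, run by NIK and IKK1, matures p100 to p52 and works with RelB without IKK2.

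Library totals were 19.3 and 17.7 M counts in IKK2 KO cells and 19.2 and 23.5 M in WT cells. Levels are CPM (counts divided by library size, with trimmed mean of M-values scaling) and are given for both libraries of a group. They are not divided by gene length, so they compare a gene between lines and not 1 gene with another. In bulk RNA, fewer cells of a type and less RNA per cell cannot be told apart. The predicted gene Gm26917 took 14.1 and 14.9% of the counts in IKK2 KO cells and 11 and 10.3% in WT cells, and the mitochondrial genome took 7.9 and 6.61% and 6.86 and 6.63%. The 11 fibroblast markers summed to 11000 and 11300 CPM in IKK2 KO cells and to 11200 CPM in each WT library. This sum combines members that differed in opposite directions, with Fn1 lower and Vim and Thy1 higher in IKK2 KO cells, as given below.

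Markers of other cell types differed between the lines, and their part in the results below was not tested. The 14 epithelial markers summed to 9.86 and 9.41 CPM in IKK2 KO cells and to 0.203 and 0.41 CPM in WT cells, mostly from Ocln and Krt8, with 7 at 0 in IKK2 KO cells. The 11 muscle markers summed to 82 and 85.7 CPM in IKK2 KO cells and to 19 and 18.3 CPM in WT cells, nearly all from the troponin gene Tnnt2. The 11 cartilage and bone markers summed to 14.7 and 14.4 CPM in IKK2 KO cells and to 91.9 and 97.4 CPM in WT cells, where Col2a1 made up most of it. Of the 6 cartilage and bone markers tested, 3 were higher, among them Alpl and Sp7 of bone, and 2 were lower, Col2a1 and Dmp1, with a median log2 change of 1.90. The 12 neural and glial markers summed to 546 and 544 CPM in IKK2 KO cells and to 711 and 706 CPM in WT cells, with Sox2, Tubb3 and Map2 lower. The 12 leukocyte markers summed to 5.36 and 5.01 CPM in IKK2 KO cells and to 10.2 and 9.36 CPM in WT cells, the 11 endothelial markers to 3.65 and 3.1 CPM and to 1.83 and 1.76 CPM, and the 9 adipocyte markers to 0.399 and 1.36 CPM and to 6.7 and 5.95 CPM. Some members of these lists had 0 counts in both lines and are named for that. Among them were Epcam and Krt5 (epithelial), Myod1 and Myog (muscle), Matn1 (cartilage) and Sox10 (glia). Spi1 and Cd3e (leukocytes), Kdr and Tek (endothelium) and Adipoq (adipocytes) were others. Further members were read at a few counts. Ptprc had 0 and 1 counts in IKK2 KO cells and 5 and 11 in WT cells, and Comp 1 and 3 against 4 and 10. Cdh1 had 1 and 0 against 1 and 2, Gfap 5 and 1 against 2 and 1, and Pparg 1 and 1 against 0 and 1.

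Ikbkb itself was read at 43.7 and 43.1 CPM in IKK2 KO cells, against 59.3 and 60.4 CPM in WT cells. The log2 change was −0.46 ± 0.05 (standard error, as in all changes below; adjusted p = 7.2e-12, edgeR's quasi-likelihood test with Benjamini-Hochberg adjustment). Gene counts do not show which exons the reads came from, so this level does not check the label. The p65 KO line, which carries no IKK2 label, had 42.7 and 42.7 CPM of the same transcript. The gene lies on chromosome 8 (GRCm38), where the 856 other genes tested had a median log2 change of −0.46, and 424 of them (49.5%) were lower than Ikbkb. Within 5 Mb of Ikbkb, 80 genes were tested, of which 48 were lower, 15 were higher and the median was also −0.46.

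The lines differed at most expressed genes. Of 16322 genes tested, 12122 (74.3%) passed an adjusted p of 0.05, with 5860 (35.9%) higher and 6262 (38.4%) lower in IKK2 KO cells. A change of at least 2-fold was seen in 4508 genes (27.6%), of which 1632 were higher and 2876 lower. Changes under 1.5-fold made up 40.9% of those that passed. Over all genes tested the median log2 change was −0.03, and both libraries of one line lay above both of the other for 86.4% of genes. Scaled by total counts alone the median shifted to −0.21, and the higher share of the genes that passed was 36.8% in place of 48.3%. At this background a gene list with 35.9% of its members higher and 38.4% lower is like all genes tested, and the lists below are read against that. Counts for a list are over its genes that passed the filter on low counts. A gene can pass it through libraries of any of the 9 groups, those with TNFα included. The lists and their untreated medians therefore include genes with 0 counts in all 4 untreated libraries compared, such as Cxcl2 and Icam1. The filter left out 13 of 25 chemokine genes, 7 of 21 adhesion and effector genes, 6 of 19 cytokine genes, 13 of 39 Hox genes, 15 of 57 other positional genes and 7 of 22 imprinted genes, and at most 6 genes of any other list described below.

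**Figure D1:**
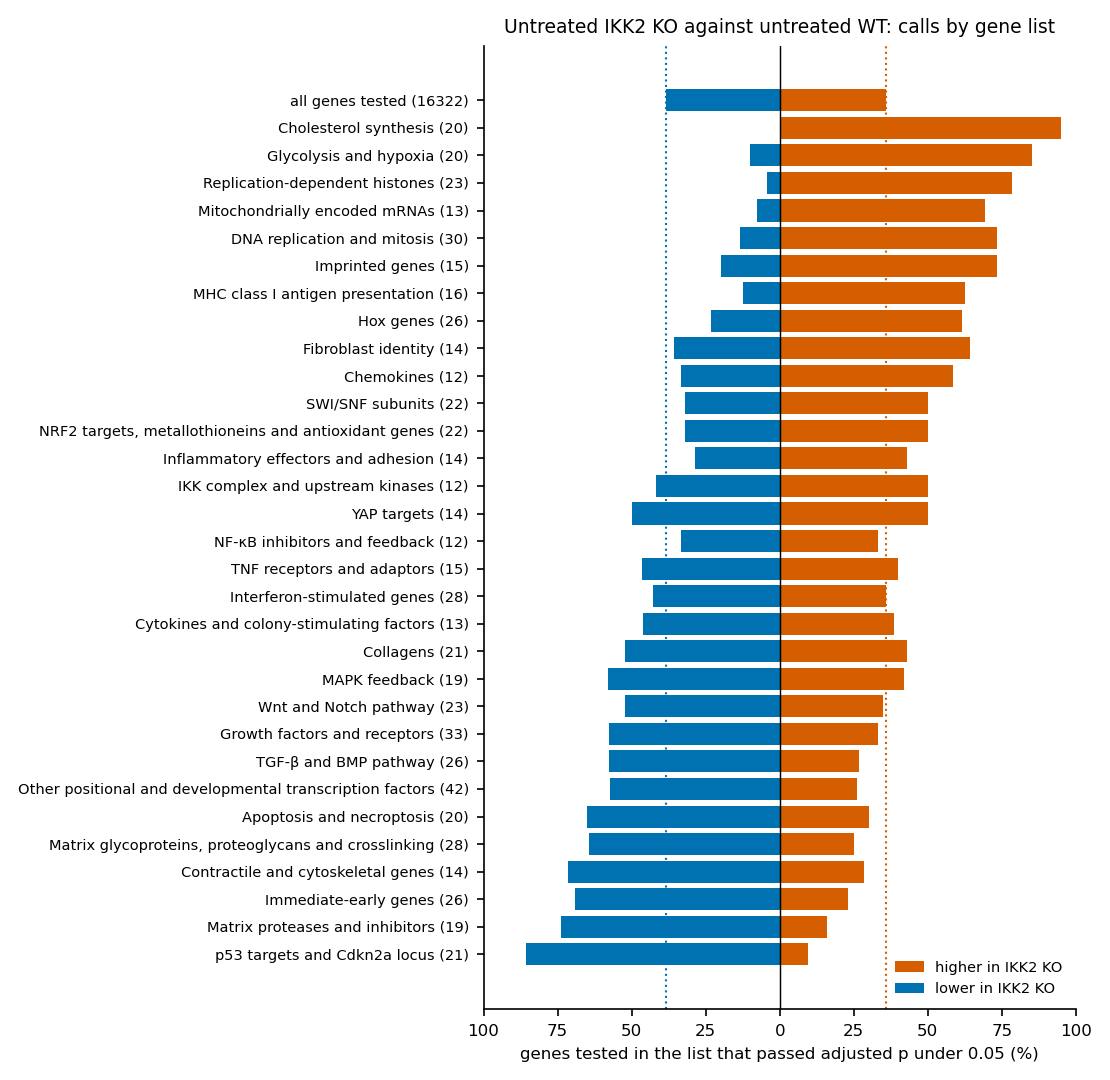
Share of each gene list that was higher (right) or lower (left) in untreated IKK2 KO cells than in untreated WT cells at an adjusted p under 0.05, with the number of genes tested in parentheses; lists with 10 or more genes tested are drawn. The dotted lines mark 35.9% higher and 38.4% lower over all 16322 genes, and the cholesterol list (19 of 20 higher) and the p53 list (18 of 21 lower) lie at the ends.

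The kinase list of the IKK complex and its upstream activators held 6 higher and 5 lower genes of 12, with a median of 0.12 that fell to −0.06 under total-count scaling. The partners of IKK2 in the complex were lower. Ikbkg, which encodes NEMO, was at 25.1 and 22 CPM in IKK2 KO cells, against 47.6 and 45 CPM in WT cells (−0.97 ± 0.06, adjusted p = 4.7e-18). Chuk, which encodes IKK1, was at 55.5 and 53.6 CPM in IKK2 KO cells, against 72.7 and 73.7 CPM in WT cells (−0.42 ± 0.04, adjusted p = 2.1e-11). Ikbke, the interferon-linked kinase IKKε, was at 2.17 and 2.6 CPM in IKK2 KO cells, against 8.62 and 8.25 CPM in WT cells (−1.82 ± 0.16). In each of these genes both IKK2 KO libraries lay below both WT libraries, where 86.4% of all genes tested had no overlap in one direction or the other. Map3k14, which encodes the non-canonical kinase NIK, was higher at 35.5 and 33.9 CPM in IKK2 KO cells, against 23 and 20.9 CPM in WT cells (0.67 ± 0.07). The TAK1 gene Map3k7 (0.39 ± 0.04) and its adaptors Tab1 (0.55 ± 0.09), Tab2 (0.38 ± 0.03) and Tab3 (0.67 ± 0.07) were also higher.

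Of the 5 NF-κB subunit genes, 4 were higher and 1 was lower, with a median log2 change of 0.73. Relb stood at 15.7 and 16.8 CPM in IKK2 KO cells, against 7.25 and 6.36 CPM in WT cells, a log2 change of 1.27 ± 0.10 (adjusted p = 1.8e-15). Nfkb2, the p100 gene, was at 89.1 and 88.4 CPM in IKK2 KO cells, against 53.5 and 53.7 CPM in WT cells (0.73 ± 0.04). Rel, which encodes c-Rel, was at 43.6 and 41.5 CPM in IKK2 KO cells, against 25.5 and 25.9 CPM in WT cells (0.73 ± 0.06). The groups did not overlap for these 3 genes, as for 86.4% of all genes tested. Each of the 3 is a known NF-κB target as well as a subunit. Nfkb1, the p105 gene, was lower at 115 and 116 CPM in IKK2 KO cells, against 138 and 130 CPM in WT cells (−0.22 ± 0.03). Rela, which encodes p65, was at 72.4 and 67 CPM in IKK2 KO cells, against 63.2 and 64.4 CPM in WT cells (0.13 ± 0.04, adjusted p = 0.0088), a small difference that reversed under total-count scaling and did not pass without the IKK2 KO library at 72.4 CPM or with DESeq2.

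The inhibitor and feedback list was split, with 4 genes higher and 4 lower of 12 tested. The 4 higher genes were Tnfaip3, Nfkbia, Zc3h12a and Tnip1. Tnfaip3 encodes A20, the ubiquitin-editing brake on TNF signalling, and was at 36.5 and 32.9 CPM in IKK2 KO cells, against 8.98 and 8.54 CPM in WT cells (1.99 ± 0.08, adjusted p = 3.6e-26). Nfkbia encodes IκBα, the main substrate of IKK2, and was at 42 and 40.8 CPM in IKK2 KO cells, against 15.6 and 15.1 CPM in WT cells (1.43 ± 0.06, adjusted p = 1.3e-23). For both genes each IKK2 KO library exceeded each WT library more than 2-fold. Zc3h12a, an endonuclease gene that limits cytokine mRNAs, changed by 0.71 ± 0.12, and Tnip1, a partner of A20, by 0.42 ± 0.08. On the lower side Cyld, a deubiquitinase gene, changed by −0.50 ± 0.04 and Bcl3, a nuclear IκB gene, by −1.89 ± 0.55, a call that was lost without 1 IKK2 KO library. Nfkbid, another nuclear IκB gene, had 0 counts in IKK2 KO cells against 1.07 and 1.07 CPM in WT cells, at least 12-fold lower with 3 counts over the group as the floor. Bcl3 and Nfkbid lie on chromosome 7, where 67% of the genes tested were lower. The other IκB genes Nfkbib (−0.12 ± 0.11, adjusted p = 0.34) and Nfkbie (−0.17 ± 0.29, adjusted p = 0.6) did not pass.

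The promoters of the inhibitor Nfkbia and of the chemokines Cxcl1 and Cxcl10 are shown as examples of higher genes that carry κB-like letters near the start site; promoters of lower genes held such letters too, as given after the sequences. The sequences are RefSeq promoters of GRCm38.p6, from 250 bases before to 50 bases after the start, written 5′ to 3′ on the strand of the gene. Capitals mark matches to GGGAANNNCC or GGGANTTTCC on either strand, and overlapping matches run together. They lie at chr12:55492598-55492897 (minus strand), chr5:90890995-90891294 (plus strand) and chr5:92348840-92349139 (minus strand).
Nfkbia: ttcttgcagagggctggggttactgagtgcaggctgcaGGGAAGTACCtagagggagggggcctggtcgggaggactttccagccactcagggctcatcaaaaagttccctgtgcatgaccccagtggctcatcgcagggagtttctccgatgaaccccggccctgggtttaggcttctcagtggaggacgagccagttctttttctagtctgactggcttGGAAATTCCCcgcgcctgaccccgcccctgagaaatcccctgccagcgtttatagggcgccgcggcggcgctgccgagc
Cxcl1: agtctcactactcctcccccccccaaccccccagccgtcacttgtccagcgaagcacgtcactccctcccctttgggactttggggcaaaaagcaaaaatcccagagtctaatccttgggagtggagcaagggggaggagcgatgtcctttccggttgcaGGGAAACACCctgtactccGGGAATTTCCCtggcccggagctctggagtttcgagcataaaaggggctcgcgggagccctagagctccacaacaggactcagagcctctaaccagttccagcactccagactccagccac
Cxcl10: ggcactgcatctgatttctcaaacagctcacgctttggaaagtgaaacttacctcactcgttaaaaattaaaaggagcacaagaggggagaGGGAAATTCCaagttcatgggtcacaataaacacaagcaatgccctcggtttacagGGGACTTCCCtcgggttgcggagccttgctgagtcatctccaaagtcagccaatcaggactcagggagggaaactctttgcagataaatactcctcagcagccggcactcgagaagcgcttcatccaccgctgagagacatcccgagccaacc
The matches began at −212 and −29 from the start in Nfkbia, at −90, −71 and −70 in Cxcl1 and at −159 and −103 in Cxcl10. Such letters occurred in 5.98% of the 32851 promoters in the table, in 6.88% of those of genes tested, in 7.32% of those of higher genes, in 6.80% of those of lower genes and in 6.19% of those of genes that did not pass. Within the inhibitor list they occurred in 4 of the 5 promoters of higher genes and in 3 of the 5 of lower genes (Bcl3, Cyld and Nfkbid). Within the chemokine list they occurred in 3 of the 4 of higher genes and in 0 of the 5 of lower genes. These numbers were 2 of 6 and 1 of 4 in the adhesion and effector list, and 2 of 6 and 0 of 7 in the TNF receptor list. Promoters were available for 4 of the 7 higher chemokine genes, and those of Ccl2, Vcam1 and Relb were not available. In the subunit list 4 of the 5 promoters of higher genes held such letters, and no promoter of a lower gene was available. These 5 promoters belong to 3 genes, and the matches to Nfkb2 and Rel. A gene can have several promoters, and overlapping windows of Nfkb2 hold the same match. The lower gene Tlr3 also held such letters, and the higher gene Birc3 did not. The match is a description of the window and not of binding.

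Chemokine genes had the highest median change of the NF-κB pathway lists. Of 12 tested, 7 were higher and 4 lower, with a median log2 change of 3.79, or 2.50 with genes at 0 counts set to their bound. That second median leaves out genes with 0 counts in a line and at most 3 in the other, which have no bound. Medians at the bounds below were formed in the same way. Ccl2, the monocyte attractant MCP-1, was at 14.9 and 15.2 CPM in IKK2 KO cells, against 0.101 and 0.123 CPM in WT cells (6.98 ± 0.22, adjusted p = 1.1e-28). Its neighbour Ccl7 was at 3.02 and 3.16 CPM in IKK2 KO cells and 0 in WT cells, at least 45.4-fold higher. The neutrophil attractant Cxcl1 was at 8.5 and 8.73 CPM in IKK2 KO cells, against 0.0507 and 0 CPM in WT cells, a ratio of 379 (95% interval 67.6 to 15000). The interferon- and NF-κB-responsive chemokine Cxcl10 was at 6.33 and 6.93 CPM in IKK2 KO cells, against 0.0507 and 0.205 CPM in WT cells (5.54 ± 0.31, or 6.85 without the WT library at 0.205 CPM). These 4 inflammatory chemokines were therefore near or at 0 in WT cells and present at a few CPM or more in IKK2 KO cells. Cxcl12, the homeostatic ligand of CXCR4, was at 177 and 173 CPM in IKK2 KO cells, against 42.3 and 43.4 CPM in WT cells (2.03 ± 0.04). In the other direction Ccl9 was at 0.855 and 0.433 CPM in IKK2 KO cells, against 5.78 and 5.91 CPM in WT cells (−3.15 ± 0.24) and Cx3cl1, the membrane-bound chemokine fractalkine, changed by −0.90 ± 0.05. Ccl20 (0.513 and 0.371 CPM in IKK2 KO cells) was at least 6.54-fold higher than the 0 of WT cells and Ccl5 (0.513 and 0.248 CPM) at least 5.67-fold higher. Cxcl2 had 0 counts in all 4 libraries.

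**Figure D2:**
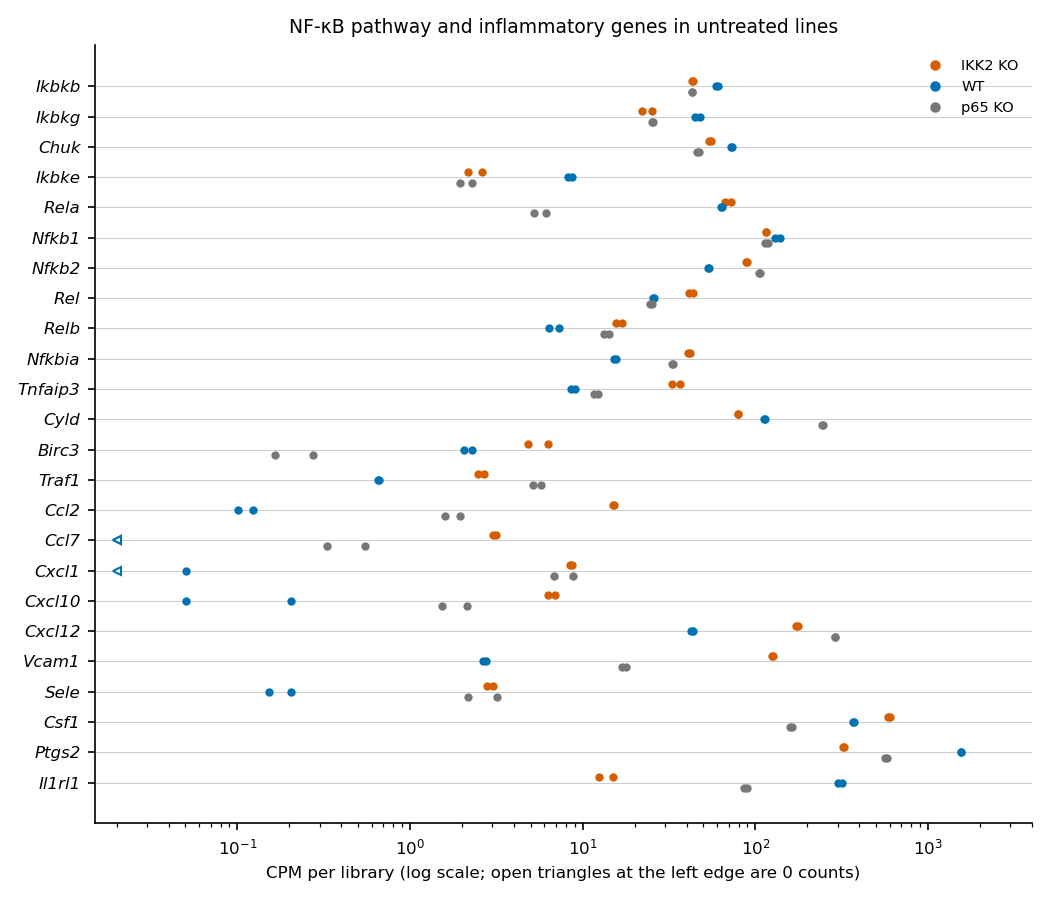
CPM of each untreated library on a log axis for NF-κB pathway and inflammatory genes, with IKK2 KO, WT and p65 KO libraries in orange, blue and grey and 0 counts as open triangles at the left edge. Ccl2, Ccl7, Cxcl1, Cxcl10, Vcam1 and Sele lay far to the right in IKK2 KO cells of WT cells, whereas Ptgs2 and Il1rl1 lay to the left.

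Adhesion and effector genes were mixed, with 6 higher and 4 lower of 14 and a median of 0.33. The median was 0.65 without genes that had too few counts for a bound, and no gene was set to a bound. Vcam1, the ligand of the integrin VLA-4, was at 126 and 125 CPM in IKK2 KO cells, against 2.74 and 2.63 CPM in WT cells (5.55 ± 0.07, adjusted p = 1.7e-43). Sele, E-selectin, was at 2.79 and 3.03 CPM in IKK2 KO cells, against 0.152 and 0.205 CPM in WT cells (3.96 ± 0.37). Sod2, the mitochondrial superoxide dismutase, changed by 0.83 ± 0.04 and the receptor gene Tlr2 by 0.99 ± 0.15. Icam1, which is induced with Vcam1 in many cells, had 0 counts in all 4 libraries. Prostaglandin genes went in opposite directions. Ptgs2, the inducible cyclooxygenase COX-2, was at 324 and 321 CPM in IKK2 KO cells, against 1550 and 1550 CPM in WT cells (−2.27 ± 0.03), whereas Ptges, the prostaglandin E synthase that acts after it, was at 53 and 54.1 CPM in IKK2 KO cells, against 17.8 and 19.2 CPM in WT cells (1.53 ± 0.06). Il1rl1, the receptor of interleukin-33, was at 12.5 and 15 CPM in IKK2 KO cells, against 301 and 316 CPM in WT cells (−4.49 ± 0.05). Its ligand Il33 was at 4.5 and 4.58 CPM in IKK2 KO cells, against 0.101 and 0.041 CPM in WT cells, a ratio of 66.7 (95% interval 22.4 to 327), or a log2 change of 6.59 without the WT library at 0.101 CPM, so ligand and receptor differed in opposite directions. The double-stranded RNA receptor Tlr3 (−2.29 ± 0.18) and the endotoxin receptor Tlr4 (−0.76 ± 0.07) were lower.

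Among cytokines 5 were higher and 6 lower of 13, with a median of −0.34, or −0.62 at the bounds. Tnfsf11, the osteoclast factor RANKL, was at 14.3 and 13.3 CPM in IKK2 KO cells and 0 in WT cells, at least 203-fold higher. Csf1, the macrophage growth factor, was at 590 and 599 CPM in IKK2 KO cells, against 371 and 370 CPM in WT cells (0.68 ± 0.03), and Lif changed by 0.44 ± 0.11. Il11 was at 0.342 and 0.929 CPM in IKK2 KO cells, against 9.28 and 12.1 CPM in WT cells (−4.11 ± 0.24, or −4.96 without the IKK2 KO library at 0.929 CPM) and its relative Clcf1 at 47.3 and 48.2 CPM in IKK2 KO cells, against 122 and 125 CPM in WT cells (−1.38 ± 0.04). Il1rn, the interleukin-1 receptor antagonist, had 0 counts in IKK2 KO cells against 3.6 and 4.6 CPM in WT cells, at least 46.6-fold lower. The classical acute cytokines Tnf, Il6, Il1a and Il1b were too scarce in the 18 libraries to be tested.

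The TNF receptor list had 6 higher and 7 lower genes of 15 with a median of −0.14, a split close to that of all genes. Higher members were mostly TRAF adaptors, with Traf1 at 2.68 and 2.48 CPM in IKK2 KO cells, against 0.659 and 0.657 CPM in WT cells (1.96 ± 0.27), Traf5 at 1.03 ± 0.10 and Traf3 at 0.56 ± 0.04 on the log2 scale. The ubiquitin ligase Birc3, cIAP2, was at 6.27 and 4.83 CPM in IKK2 KO cells, against 2.28 and 2.05 CPM in WT cells (1.37 ± 0.17), and its paralog Birc2, cIAP1, was at 10.4 and 9.16 CPM in IKK2 KO cells, against 16.8 and 16.3 CPM in WT cells (−0.75 ± 0.09). Tnfrsf1a, the main TNF receptor of fibroblasts, was at 34.9 and 32.7 CPM in IKK2 KO cells, against 45 and 46.6 CPM in WT cells (−0.44 ± 0.05). The death-domain adaptor Tradd (−1.04 ± 0.12), the kinase Ripk1 (−0.29 ± 0.05) and the linear ubiquitin ligase Rnf31 (−0.74 ± 0.11) were lower.

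The same genes were then read at 45 and 90 min of TNFα, in libraries that the untreated comparison does not use but from the same 2 lines. Of the 12122 genes that differed in untreated cells, 97.8% kept their direction at 45 min and 98.4% at 90 min, and 89% and 89.3% passed again in the same direction. Over all genes tested, 35.4% were higher and 38.4% lower in IKK2 KO cells at 45 min (73.8% in all), and 35.4% and 37.7% at 90 min (73.2%). The line difference itself changed at 45 min in 794 genes (4.86% of those tested) and at 90 min in 384 (2.35%). The subunit list, with 4 of 5 genes higher without TNF, had 0 higher and 5 lower at 45 min, with a median of −0.58. The inhibitor list had 0 higher and 10 lower of 12 at 45 min (median −0.95) and 1 higher and 8 lower at 90 min (median −0.57). Nfkbia was at 189 and 183 CPM in IKK2 KO cells and 377 and 368 CPM in WT cells at 45 min, a log2 change of −1.0 ± 0.03, against 1.43 ± 0.06 without TNF. The difference of these differences was −2.44 ± 0.07 (adjusted p = 1.2e-28). Tnfaip3 was at 147 and 151 CPM in IKK2 KO cells and 552 and 563 CPM in WT cells at 45 min (−1.90 ± 0.03). WT cells were thus below IKK2 KO cells before TNF and above them at 45 min for both feedback genes. Nfkbie, which did not pass without TNF, was at 2.42 and 1.51 CPM in IKK2 KO cells and 22.1 and 22.1 CPM in WT cells at 45 min (−3.50 ± 0.14).

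The adhesion and effector list had 5 higher and 9 lower of 14 at 45 min (median −1.55) and 5 higher and 8 lower at 90 min (median −1.04), and the chemokine list 6 higher and 4 lower of 12 (median 1.48) and 6 higher and 3 lower (median 0.65). Ccl2 was at 59 and 57.7 CPM in IKK2 KO cells and 61.7 and 63.2 CPM in WT cells at 45 min (−0.10 ± 0.05, adjusted p = 0.051). Vcam1 was at 133 and 141 CPM and 83.7 and 85.7 CPM at that time (0.70 ± 0.04), and Cxcl10 at 18.4 and 17.1 CPM and 6.69 and 5.82 CPM (1.49 ± 0.11). Vcam1 and Cxcl10 thus remained higher in IKK2 KO cells at 45 min with a smaller difference, and Ccl2 did not pass there. At 90 min Ccl2 was at 68 and 68.4 CPM in IKK2 KO cells and 48.4 and 50.9 CPM in WT cells (0.46 ± 0.05, adjusted p = 3.5e-12). Irf1, an interferon regulatory factor gene, was at 15.5 and 15.8 CPM in IKK2 KO cells, against 4.51 and 5.99 CPM in WT cells without TNF (1.55 ± 0.10) and at 41.4 and 41.2 CPM and 117 and 117 CPM at 45 min (−1.50 ± 0.05). The cholesterol list, away from the pathway, had a median of 0.95 without TNF and of 0.85 at both times.

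**Figure D3:**
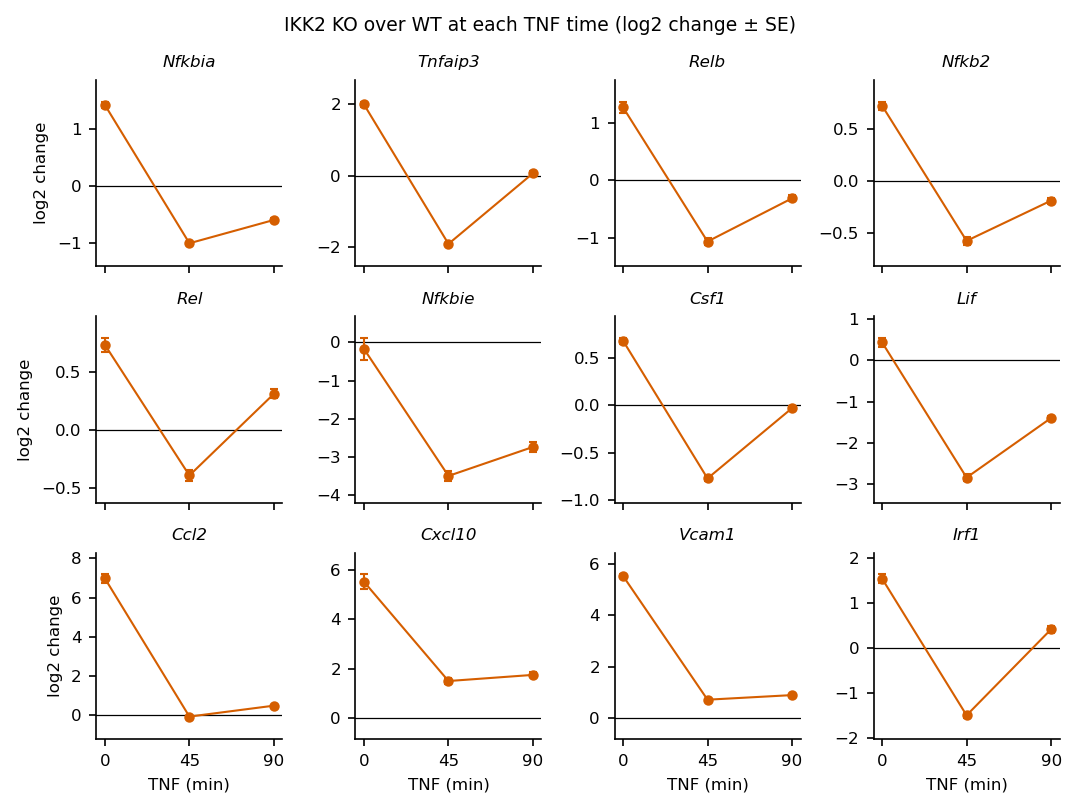
Log2 change of IKK2 KO over WT cells, with approximate standard errors, without TNF (0) and at 45 and 90 min of TNFα (10 ng/ml). The vertical scales differ between panels, and the errors are too small where a line is near 0. Nfkbia, Tnfaip3, Relb, Nfkb2, Rel, Csf1, Lif and Irf1 were above 0 without TNF and below 0 at 45 min, whereas Cxcl10 and Vcam1 stayed above 0.

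Genes of cell death leaned to lower, with 13 lower and 6 higher of 20 and a median of −0.56. Cflar, which encodes the caspase-8 inhibitor cFLIP, was at 74.1 and 72.9 CPM in IKK2 KO cells, against 239 and 233 CPM in WT cells (−1.68 ± 0.03, adjusted p = 6.8e-36). The anti-apoptotic genes Bcl2 (−0.66 ± 0.06), Bcl2l1 (−0.64 ± 0.05) and Bcl2l2 (−0.95 ± 0.08) were lower, and Mcl1 was higher (0.32 ± 0.03). The pro-apoptotic effector Bax was at 23.8 and 22.5 CPM in IKK2 KO cells, against 51.9 and 54.9 CPM in WT cells (−1.21 ± 0.06) and the death receptor Fas at 0.285 and 0 CPM in IKK2 KO cells, against 2.84 and 3.08 CPM in WT cells, a WT to IKK2 KO ratio of 20 (95% interval 8.37 to 62.7). Without the IKK2 KO library at 0 CPM the log2 change of Fas was −3.35, and without the other its level in the line was 0. Pmaip1, the BH3-only protein NOXA, was at 1.31 and 1.73 CPM in IKK2 KO cells, against 27.1 and 26.1 CPM in WT cells (−4.13 ± 0.15), whereas Bcl2l11, the BH3-only protein BIM, was at 22.6 and 21.2 CPM in IKK2 KO cells, against 8.88 and 8 CPM in WT cells (1.38 ± 0.09). Ripk3, the kinase of necroptosis, was at 6.1 and 7 CPM in IKK2 KO cells and 0 in WT cells, at least 95.9-fold higher, and its substrate Mlkl changed by −0.63 ± 0.06.

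The p53 list had the highest share of lower genes among lists with 10 or more genes tested. Of 21 genes, 18 were lower and 2 higher, with a median log2 change of −1.33 against −0.03 over all genes. Cdkn1a, the cell cycle inhibitor p21, was at 31.9 and 33.3 CPM in IKK2 KO cells, against 188 and 191 CPM in WT cells (−2.54 ± 0.04, adjusted p = 7.1e-39). Ccng1, cyclin G1, was at 63.1 and 62.7 CPM in IKK2 KO cells, against 514 and 514 CPM in WT cells (−3.03 ± 0.03). Mdm2, the ubiquitin ligase that degrades p53, was at 62.9 and 65.5 CPM in IKK2 KO cells, against 215 and 207 CPM in WT cells (−1.71 ± 0.04). Both IKK2 KO libraries lay below both WT libraries for these 3 genes, where 86.4% of all genes tested had no overlap in one direction or the other. Eda2r, a TNF receptor family gene, was at 1.48 and 1.18 CPM in IKK2 KO cells, against 58.8 and 60.6 CPM in WT cells (−5.48 ± 0.11), and Trp53inp1 at 1.08 and 1.18 CPM in IKK2 KO cells, against 26.9 and 26.2 CPM in WT cells (−4.55 ± 0.14). Perp, a membrane protein gene, had 0 counts in IKK2 KO cells against 92 and 98.9 CPM in WT cells, at least 1080-fold lower. The p53 gene itself, Trp53, was higher at 184 and 182 CPM in IKK2 KO cells, against 105 and 106 CPM in WT cells (0.80 ± 0.03), as was the kinase gene Plk2 (1.33 ± 0.03). Cdkn2a, whose locus encodes p16 and ARF, was at 4.33 and 4.58 CPM in IKK2 KO cells, against 5.63 and 6.2 CPM in WT cells (−0.42 ± 0.15, adjusted p = 0.013), and this call was lost without 1 library of either line. The list stayed lower at 45 min (18 of 21, median −1.91) and at 90 min (17 of 21, median −1.35). How each line was immortalised is not given in the sources used here.

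**Figure D4:**
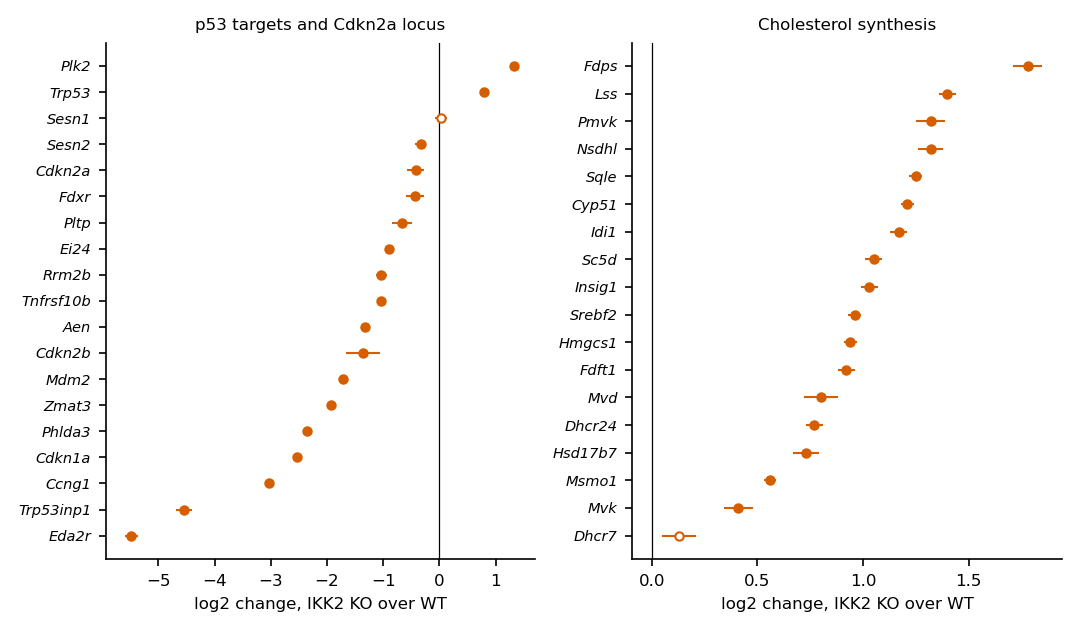
Log2 change of untreated IKK2 KO over untreated WT cells with approximate standard errors for p53 list genes (left) and cholesterol list genes (right). Perp and Gdf15, which had 0 counts in IKK2 KO cells, are not drawn, and open points did not pass an adjusted p of 0.05. Of the p53 genes drawn, Plk2 and Trp53 were the 2 that passed above 0, and every cholesterol gene drawn that passed lay above 0.

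Replication and mitosis genes were mostly higher by small amounts, with 22 higher and 4 lower of 30 and a median of 0.40. Mcm3, a subunit of the replicative helicase, was at 229 and 225 CPM in IKK2 KO cells, against 120 and 124 CPM in WT cells (0.89 ± 0.03), and the origin licensing gene Cdc6 changed by 0.90 ± 0.05. The mitotic checkpoint genes Bub1b (1.15 ± 0.04) and Bub1 (0.86 ± 0.04) were higher as well. Mki67, the proliferation antigen Ki-67, was lower at 627 and 630 CPM in IKK2 KO cells, against 905 and 889 CPM in WT cells (−0.51 ± 0.02), as were Ccne1 (−0.97 ± 0.08) and Rrm1 (−0.38 ± 0.03), all 3 of which lie on chromosome 7. The replication-dependent histone genes had 18 higher and 1 lower of 23 with a median of 0.31. They are near-identical copies whose reads may be shared, so single members are uncertain.

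Matrix genes showed some of the widest differences. Collagen genes had 9 higher and 11 lower of 21 with a median of −0.19, so the list as a whole was like all genes, while single members differed widely. The basement membrane pair Col4a1 and Col4a2 were at 43.2 and 44.1 and at 36 and 35.9 CPM in IKK2 KO cells, against 0.152 and 0.0821 and 0 and 0.205 CPM in WT cells (a log2 change of 8.51 ± 0.17 for Col4a1 and a ratio of 317 (95% interval 136 to 978) for Col4a2). Without the WT library at 0 CPM the log2 change of Col4a2 was 7.41, and without the other its WT level was 0. Col4a1 was also near 0 in WT cells, so its standard error is too small. Col7a1, the anchoring fibril collagen, was at 245 and 240 CPM in IKK2 KO cells, against 45.7 and 39.3 CPM in WT cells (2.52 ± 0.05). The main fibroblast collagens differed less, with Col3a1 at 1.03 ± 0.03, Col1a1 at 0.38 ± 0.03 and Col1a2 at 0.08 ± 0.03 on the log2 scale, where Col1a2 reversed under total-count scaling. The cartilage collagen Col2a1 was at 0 and 0.31 CPM in IKK2 KO cells, against 78.6 and 83.5 CPM in WT cells, a WT to IKK2 KO ratio of 548 (95% interval 234 to 1690). Without the IKK2 KO library at 0 CPM its log2 change was −8.01, and without the other its level in the line was 0. Col11a1, its partner in cartilage fibrils, was at 2.96 and 2.97 CPM in IKK2 KO cells, against 66.7 and 65.8 CPM in WT cells (−4.48 ± 0.10). Col12a1, a fibril-associated collagen, was at 11.3 and 12.1 CPM in IKK2 KO cells, against 276 and 285 CPM in WT cells (−4.59 ± 0.05).

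Glycoprotein, proteoglycan and crosslinking genes leaned to lower, with 18 lower and 7 higher of 28 and a median of −0.60. Fn1, fibronectin, was at 2750 and 2790 CPM in IKK2 KO cells, against 5100 and 5060 CPM in WT cells (−0.88 ± 0.02) and was among the largest losses in CPM. Lox, the lysyl oxidase that crosslinks collagen, was at 177 and 181 CPM in IKK2 KO cells, against 436 and 435 CPM in WT cells (−1.28 ± 0.03), whereas its relative Loxl2 was at 149 and 152 CPM in IKK2 KO cells, against 2.08 and 2.75 CPM in WT cells (5.94 ± 0.07). Fibulins were split in the same way. Fbln1 was at 121 and 120 CPM in IKK2 KO cells, against 0.0507 and 0.287 CPM in WT cells (9.32 ± 0.12, or 8.68 and 11.04 without the lower and the higher WT library) and Fbln5 at 4.05 and 3.78 CPM in IKK2 KO cells, against 74.2 and 77.4 CPM in WT cells (−4.27 ± 0.08). Fbn2, the microfibril protein fibrillin-2, had 0 counts in IKK2 KO cells and 128 and 126 CPM in WT cells, at least 1430-fold lower, while Fbn1 did not pass (−0.07 ± 0.03) but was called lower with other scalings. Thbs2, the anti-angiogenic thrombospondin-2, was at 213 and 216 CPM in IKK2 KO cells, against 5.48 and 5.87 CPM in WT cells (5.23 ± 0.05).

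Proteases and their inhibitors were lower in 14 of 19 genes and higher in 3, with a median of −1.33. Timp3, a matrix-bound metalloproteinase inhibitor, was at 16.1 and 16.1 CPM in IKK2 KO cells, against 471 and 464 CPM in WT cells (−4.86 ± 0.04). Timp1 (−2.07 ± 0.04) and Timp2 (−2.08 ± 0.03) were lower too, as was the gelatinase Mmp2, at 127 and 130 CPM in IKK2 KO cells, against 333 and 350 CPM in WT cells (−1.42 ± 0.03). Serpine2 was at 0.057 and 0 CPM in IKK2 KO cells, against 9.59 and 9.56 CPM in WT cells, a WT to IKK2 KO ratio of 323 (95% interval 57.6 to 12800). The contractile list had 10 lower and 4 higher of 14 (median −0.39), with Acta2, smooth muscle actin, at 109 and 104 CPM in IKK2 KO cells, against 569 and 611 CPM in WT cells (−2.47 ± 0.03) and Myl9, a myosin light chain, at 2.79 and 2.35 CPM in IKK2 KO cells, against 33 and 32.8 CPM in WT cells (−3.67 ± 0.11). The YAP target list was even, with 7 higher and 7 lower of 14.

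Immediate-early genes were lower in 18 of 26 and higher in 6, with a median of −0.69. Egr1 was at 41.8 and 41.4 CPM in IKK2 KO cells, against 131 and 136 CPM in WT cells (−1.68 ± 0.04), and its relatives Egr2 (−2.76 ± 0.09) and Egr3 (−1.87 ± 0.04) were also lower. Klf4 was at 13.1 and 17 CPM in IKK2 KO cells, against 113 and 115 CPM in WT cells (−2.93 ± 0.06) and Btg2, an antiproliferative gene that p53 also induces, at 4.33 and 4.21 CPM in IKK2 KO cells, against 39.7 and 44.7 CPM in WT cells (−3.31 ± 0.09). Myc stood against the list at 461 and 467 CPM in IKK2 KO cells, against 105 and 101 CPM in WT cells (2.17 ± 0.03, adjusted p = 2.5e-41), and Atf3, a stress-response factor, at 5.59 and 5.94 CPM in IKK2 KO cells, against 0.406 and 0.287 CPM in WT cells (4.06 ± 0.24). The MAPK feedback list was split, with 8 higher and 11 lower of 19 (median −0.25). Spry1, an inhibitor of receptor tyrosine kinase signalling, was at 51.2 and 46.9 CPM in IKK2 KO cells, against 2.84 and 3.24 CPM in WT cells (4.0 ± 0.10) and the ERK phosphatase Dusp4 at 80.5 and 80.8 CPM in IKK2 KO cells, against 19.5 and 20.2 CPM in WT cells (2.02 ± 0.06). Spry4 (−1.38 ± 0.06) and Dusp5 (−1.31 ± 0.03) were lower.

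Growth factor and receptor genes had 19 lower and 11 higher of 33 with a median of −0.89. Egfr, the epidermal growth factor receptor, was at 0.456 and 0.495 CPM in IKK2 KO cells, against 73 and 73.3 CPM in WT cells (−7.25 ± 0.12, adjusted p = 4.4e-40), and its ligands Ereg, at 49.6 and 50 CPM in IKK2 KO cells, against 356 and 357 CPM in WT cells (−2.84 ± 0.04), and Hbegf (−0.92 ± 0.03) were lower. Fgf2 was at 12.3 and 12.3 CPM in IKK2 KO cells, against 156 and 149 CPM in WT cells (−3.63 ± 0.06), whereas the receptor gene Fgfr1 was at 340 and 356 CPM in IKK2 KO cells, against 155 and 157 CPM in WT cells (1.15 ± 0.03). The IGF-binding protein genes split, with Igfbp4 at 130 and 138 CPM in IKK2 KO cells, against 5.68 and 5.5 CPM in WT cells (4.58 ± 0.07) and Igfbp7 at 12.9 and 11.1 CPM in IKK2 KO cells, against 74 and 75 CPM in WT cells (−2.62 ± 0.07). Gas6, the ligand of the kinase AXL, was at 18.3 and 18.6 CPM in IKK2 KO cells and 0 in WT cells, at least 271-fold higher, and the receptor gene Axl was lower (−0.95 ± 0.03).

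Wnt and Notch genes had 12 lower and 8 higher of 23 (median −0.67). Wnt7b was at 186 and 192 CPM in IKK2 KO cells, against 0.254 and 0.287 CPM in WT cells (9.41 ± 0.11), and Axin2, a feedback target of β-catenin, at 2.51 and 2.85 CPM in IKK2 KO cells, against 0.101 and 0.0821 CPM in WT cells (4.79 ± 0.42). Wnt10a had 0 counts in IKK2 KO cells and 38.9 and 36 CPM in WT cells, at least 419-fold lower, and the Wnt antagonist Sfrp1 had 0 against 9.54 and 10.5 CPM, at least 113-fold lower. Notch2 was at 627 and 613 CPM in IKK2 KO cells, against 240 and 243 CPM in WT cells (1.36 ± 0.03), and Notch1 at 12.8 and 12.9 CPM in IKK2 KO cells, against 48.7 and 45.9 CPM in WT cells (−1.88 ± 0.07). In the TGF-β and BMP list 15 were lower and 7 higher of 26 (median −0.30). Tgfbr2, the type II receptor, was at 32.2 and 34.3 CPM in IKK2 KO cells, against 116 and 124 CPM in WT cells (−1.86 ± 0.05), Tgfbi, a TGF-β-induced matrix protein, at 34.3 and 32.1 CPM in IKK2 KO cells, against 0.456 and 0.616 CPM in WT cells (5.92 ± 0.14), and the ligand Tgfb2 at 11.7 and 11.2 CPM in IKK2 KO cells, against 0.761 and 1.15 CPM in WT cells (3.55 ± 0.17).

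Hox genes, which record the position along the body from which a fibroblast came, were higher in 16 and lower in 6 of 26, with a median of 0.86, or 1.13 at the bounds. In the HoxC cluster all 5 members tested, Hoxc4, Hoxc5, Hoxc6, Hoxc8 and Hoxc9, were higher, with Hoxc6 at 16 and 17 CPM in IKK2 KO cells, against 0.254 and 0.0821 CPM in WT cells (6.64 ± 0.25, or 7.54 and 5.98 without the higher and the lower WT library) and Hoxc5 at 12.8 and 13.2 CPM in IKK2 KO cells, against 0 and 0.041 CPM in WT cells, a ratio of 573 (95% interval 102 to 22700). In the HoxB cluster Hoxb9 was at 68 and 71.1 CPM in IKK2 KO cells, against 0.507 and 0.0821 CPM in WT cells (7.96 ± 0.15, or 9.62 and 7.07 without the higher and the lower WT library) and Hoxb6 at 18.8 and 18.3 CPM in IKK2 KO cells, against 1.98 and 2.59 CPM in WT cells (3.0 ± 0.13), and Hoxb7 was at 12.1 and 12.2 CPM in IKK2 KO cells and 0 in WT cells, at least 179-fold higher. HoxA genes went both ways, with Hoxa5 higher (0.73 ± 0.11) and Hoxa9 lower at 0.285 and 0.186 CPM in IKK2 KO cells, against 2.74 and 2.59 CPM in WT cells (−3.45 ± 0.38). Hoxd8 had 0 counts in IKK2 KO cells and 11.8 and 12.6 CPM in WT cells, at least 138-fold lower.

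Other positional and developmental factors were lower in 24 of 42 and higher in 11 (median −0.68). Tbx3, a limb and mammary T-box gene, had 0 counts in IKK2 KO cells and 59.7 and 54.1 CPM in WT cells, at least 636-fold lower, and Msx1 had 0 against 4.21 and 4.39 CPM, at least 48.4-fold lower. Pax9 was at 0.912 and 0.557 CPM in IKK2 KO cells, against 36.9 and 36.4 CPM in WT cells (−5.61 ± 0.15) and Foxc2 at 8.61 and 9.6 CPM in IKK2 KO cells, against 84.2 and 76.6 CPM in WT cells (−3.14 ± 0.07). En1, the engrailed homeobox gene, was at 22.2 and 23.9 CPM in IKK2 KO cells and 0 in WT cells, at least 338-fold higher. Imprinted genes, read from 1 parental allele, were higher in 11 and lower in 3 of 15, with a median of 1.02. Ndn, in the Prader-Willi region, was at 13.7 and 13.3 CPM in IKK2 KO cells and 0 in WT cells, at least 199-fold higher, and Snrpn of the same region was at 4.68 and 4.27 and 0, at least 65.8-fold higher. The non-coding RNAs Meg3 and Rian of the Dlk1-Meg3 domain were at 31.6 and 30.2 and at 86.9 and 82.2 CPM in IKK2 KO cells, against 0.0507 and 0 and 0.152 and 0.123 CPM in WT cells, and Dlk1 had 0 counts against 0.101 and 0.493 CPM, a call lost without 1 WT library.

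Cholesterol synthesis had the highest share of higher genes among lists with 10 or more genes tested. Of 20 genes, 19 were higher and 0 lower, with a median of 0.95 against −0.03 over all genes, and under total-count scaling the median was 0.77. Fdps, which makes farnesyl pyrophosphate, was at 42.5 and 43.1 CPM in IKK2 KO cells, against 12.4 and 12.6 CPM in WT cells (1.78 ± 0.07, adjusted p = 1.8e-26). Lss, lanosterol synthase, was at 126 and 123 CPM in IKK2 KO cells, against 46.5 and 47.8 CPM in WT cells (1.40 ± 0.04), and Sqle, squalene epoxidase, at 275 and 270 CPM in IKK2 KO cells, against 112 and 117 CPM in WT cells (1.25 ± 0.03). The regulator Srebf2, whose product switches on this pathway, was at 431 and 434 CPM in IKK2 KO cells, against 221 and 223 CPM in WT cells (0.96 ± 0.03). Dhcr7 was the 1 gene that did not pass (0.13 ± 0.08, adjusted p = 0.15), although it passed without 1 IKK2 KO library. At 45 and at 90 min of TNFα 19 of the 20 were again higher.

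Glycolysis and hypoxia genes were higher in 17 and lower in 2 of 20, with a median of 0.59. Tpi1 was at 450 and 465 CPM in IKK2 KO cells, against 242 and 246 CPM in WT cells (0.91 ± 0.03), Pkm, pyruvate kinase, at 2350 and 2410 CPM in IKK2 KO cells, against 1490 and 1560 CPM in WT cells (0.64 ± 0.03) and Gapdh at 626 and 612 CPM in IKK2 KO cells, against 393 and 409 CPM in WT cells (0.62 ± 0.03). Egln3, the oxygen sensor PHD3, was at 51.5 and 47.8 CPM in IKK2 KO cells, against 0.507 and 0.821 CPM in WT cells (6.18 ± 0.12), far above the rest of the list, while Ldha did not pass (0.04 ± 0.03) and was lower under total-count scaling. Mitochondrially encoded mRNAs were higher in 9 and lower in 1 of 13 (median 0.41), with mt-Nd2 at 1850 and 1830 CPM in IKK2 KO cells, against 912 and 920 CPM in WT cells (1.01 ± 0.03). The ribosomal RNA mt-Rnr1 was at 26500 and 19000 CPM in IKK2 KO cells, against 17000 and 16000 CPM in WT cells (0.46 ± 0.18, adjusted p = 0.039), and it did not pass without the IKK2 KO library at 26500 CPM, without either WT library, or under total-count scaling. NRF2 and antioxidant genes were split, with 11 higher and 7 lower of 22 and a median of 0.12 that was −0.06 under total-count scaling. Nqo1, a classical NRF2 target, was at 9.69 and 8.3 CPM in IKK2 KO cells, against 40.1 and 42.1 CPM in WT cells (−2.19 ± 0.08) and Hmox1 at 18.9 and 18 CPM in IKK2 KO cells, against 51.9 and 46.6 CPM in WT cells (−1.41 ± 0.07), whereas Gclm, a glutathione synthesis gene, was at 126 and 131 CPM in IKK2 KO cells, against 70.9 and 67.9 CPM in WT cells (0.89 ± 0.04).

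The SWI/SNF chromatin remodelling list had 11 higher and 7 lower of 22, with a median of 0.07 that was −0.11 under total-count scaling. Its 2 alternative ATPases differed. Smarca2, BRM, was at 6.04 and 6.31 CPM in IKK2 KO cells, against 62.1 and 62.8 CPM in WT cells (−3.34 ± 0.08), and Smarca4, BRG1, was at 269 and 273 CPM in IKK2 KO cells, against 237 and 226 CPM in WT cells (0.23 ± 0.03), a call that total-count scaling ended. The core subunit gene Smarcc1 was at 360 and 365 CPM in IKK2 KO cells, against 187 and 192 CPM in WT cells (0.94 ± 0.03), and Bcl7a at 6.5 and 7.68 CPM in IKK2 KO cells, against 40.2 and 37.3 CPM in WT cells (−2.45 ± 0.08).

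Interferon-stimulated genes were split, with 10 higher and 12 lower of 28 and a median of −0.20. Ifit1 was at 13.1 and 11.7 CPM in IKK2 KO cells, against 1.17 and 1.48 CPM in WT cells (3.21 ± 0.17) and Isg15, the ubiquitin-like modifier, at 1.94 and 1.11 CPM in IKK2 KO cells, against 0.507 and 0.287 CPM in WT cells (1.98 ± 0.36). Rsad2, viperin, was at 0.513 and 0.929 CPM in IKK2 KO cells and 0 in WT cells, at least 10.5-fold higher. The RNA sensor Ifih1, MDA5, was lower at 0.342 and 0.186 CPM in IKK2 KO cells, against 1.42 and 2.5 CPM in WT cells (−2.89 ± 0.42), and Oas1a had 0 counts in IKK2 KO cells against 0.964 and 0.985 CPM, at least 11-fold lower. The factor genes Stat2 (−0.76 ± 0.15) and Irf9 (−1.0 ± 0.17), which drive the program, were lower. MHC class I presentation genes leaned to higher, with 10 higher and 2 lower of 16 and a median of 0.65. Tapbp, the peptide-loading protein tapasin, was at 61.2 and 64.5 CPM in IKK2 KO cells, against 20 and 21.7 CPM in WT cells (1.59 ± 0.06), and the regulator Nlrc5 at 6.5 and 5.63 CPM in IKK2 KO cells, against 2.23 and 2.26 CPM in WT cells (1.44 ± 0.17). The transporter subunits differed in direction, with Tap2 at 4.16 and 3.4 CPM in IKK2 KO cells, against 0.964 and 1.27 CPM in WT cells (1.74 ± 0.23) and Tap1 at 0.513 and 0.248 CPM in IKK2 KO cells, against 3.35 and 4.31 CPM in WT cells (−3.31 ± 0.35, or −3.94 without the IKK2 KO library at 0.513 CPM). H2 genes are close paralogs and their single values are uncertain, among them H2-M3 at 7.75 and 7.49 CPM in IKK2 KO cells, against 0.355 and 0.451 CPM in WT cells.

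Some genes were read in 1 line alone. With at least 2 CPM in the other line, 102 genes had 0 counts in IKK2 KO cells and 36 had 0 counts in WT cells. In the untreated p65 KO line, 22 of the 102 were also at 0 and 31 were at 2 CPM or more, and for the 36 these numbers were 9 and 7. Cdh13, T-cadherin, had 0 counts in IKK2 KO cells and 145 and 144 CPM in WT cells, at least 1620-fold lower. The glutamate receptor gene Gria3 had 0 and 62.2 and 61.7 CPM, at least 696-fold lower, and the costimulatory ligand Cd80 had 0 and 46.3 and 49.4 CPM, at least 539-fold lower. Arhgap36, Stmn2, Myct1, Plac8 and Ttc9 were likewise at 0 in IKK2 KO cells and between 34.4 and 68.2 CPM in WT cells. Thy1, a surface antigen found on some fibroblasts, was at 27.1 and 26.9 CPM in IKK2 KO cells and 0 in WT cells, at least 397-fold higher. Piezo2, a mechanosensitive channel gene, was at 25.4 and 27.5 CPM against 0, at least 388-fold higher, and the neurotrophic factor Gdnf at 12.3 and 12.2 CPM against 0, at least 180-fold higher. Plce1, Herc3 and Adcyap1r1 were likewise at 0 in WT cells, and Megf10 was at 61 and 64.3 CPM in IKK2 KO cells, against 0.0507 and 0 CPM in WT cells, a ratio of 2760 (95% interval 495 to 109000). Cd34, a surface marker of some fibroblasts, was at 1.31 and 1.11 CPM in IKK2 KO cells, against 135 and 146 CPM in WT cells (−6.85 ± 0.10).

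Xist, the non-coding RNA that coats the inactive X chromosome, was at 0 and 0.31 CPM in IKK2 KO cells, against 1380 and 1350 CPM in WT cells, a WT to IKK2 KO ratio of 9200 (95% interval 3940 to 28300). Without the IKK2 KO library at 0 CPM the log2 change was −12.08, and without the other the IKK2 KO line was at 0 counts. Xist was at 472 and 483 CPM in p65 KO cells. The Y-linked genes Eif2s3y, Kdm5d, Uty, Usp9y, Zfy1, Zfy2 and Sry had 0 counts in both lines. Ddx3y had 1 count in 1 IKK2 KO library and 0 in WT cells. The cause of the Xist difference was not tested. The X chromosome as a whole had 522 genes tested with a median log2 change of 0.22. Among abundant transcripts the nuclear RNA Malat1 was at 2720 and 2470 CPM in IKK2 KO cells, against 6210 and 5780 CPM in WT cells (−1.21 ± 0.04) and the giant scaffold gene Ahnak at 7580 and 7560 CPM in IKK2 KO cells, against 9990 and 9900 CPM in WT cells (−0.39 ± 0.03). On the higher side Vim, vimentin, was at 4320 and 4370 CPM in IKK2 KO cells, against 2910 and 2950 CPM in WT cells (0.57 ± 0.02) and the chaperone Hsp90ab1 at 3790 and 3890 CPM in IKK2 KO cells, against 2080 and 2120 CPM in WT cells (0.87 ± 0.02).

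Differences were not even along the genome. Chromosome 7 had a median log2 change of −0.59, with 67% of its 1169 genes lower, and chromosome 8 a median of −0.46, with 62.2% of 857 genes lower. Chromosome 3 had a median of 0.34, with 51.5% of 952 genes higher. On chromosome 7 the first 20 Mb had a median of 0.07 and the other 7 bins of that size ran from −0.80 to −0.56. On chromosome 8 all 7 bins were below 0, from −0.59 to −0.23. The first 20 Mb of chromosome 14 had a median of −1.79 over 104 genes, of which 78 had predicted or clone names (median −2.20) and 26 had other names (median −0.56). At 45 and at 90 min of TNFα the medians of chromosomes 7, 8 and 3 were −0.61, −0.49 and 0.32 and −0.62, −0.45 and 0.36. Genes of 1 chromosome are not replicates, so these medians are a description. Copy number was not measured. Several genes named above lie on these chromosomes, among them Ikbkb, Cdh13, Gas6, Col4a1 and Col4a2 on chromosome 8. Bax, Mki67, Ndn and the lower inhibitor genes Bcl3 and Nfkbid lie on chromosome 7.

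**Figure D5:**
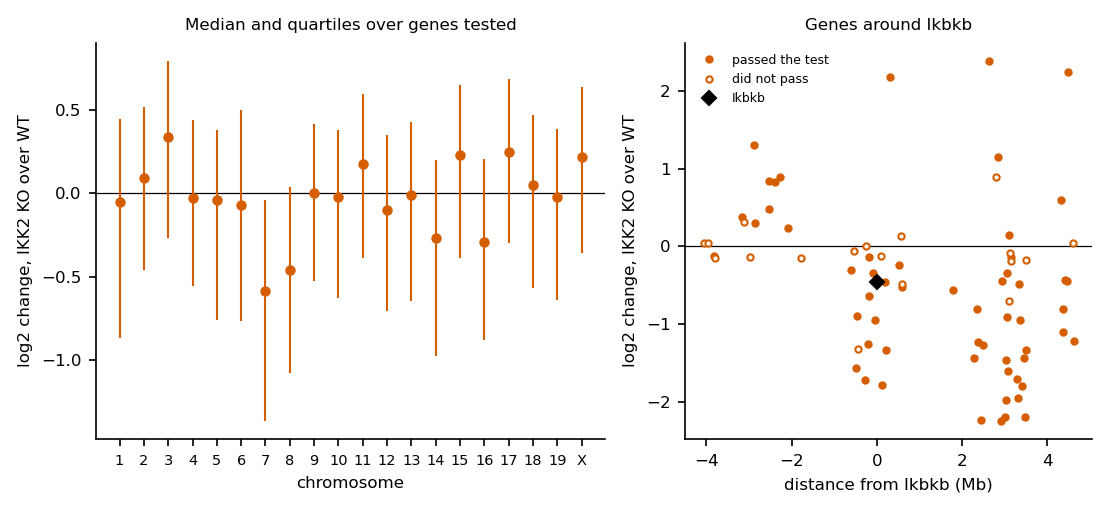
Left, median log2 change of untreated IKK2 KO over WT cells for the genes tested on each chromosome, with bars from the lower to the upper quartile. Right, log2 change of genes within 5 Mb of Ikbkb by distance from it, without genes below 0.1 CPM in either line; Ikbkb lay at −0.46, the median of its neighbours.

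The untreated p65 KO line gives another knock-out of the pathway for the same genes. Its comparison with WT shares the WT libraries, and its comparison with IKK2 KO shares the IKK2 KO libraries, so values are given side by side. IKK2 KO differed from p65 KO at 11809 genes (72.4%), 5793 higher and 6016 lower, and p65 KO from WT at 13196 (80.8%). Rela was at 72.4 and 67 CPM in IKK2 KO cells and 5.25 and 6.11 CPM in p65 KO cells (3.61 ± 0.07, adjusted p = 8.6e-37). Nfkbia was at 42 and 40.8 CPM in IKK2 KO cells and 33.5 and 33.1 CPM in p65 KO cells (0.31 ± 0.05). Tnfaip3 was at 36.5 and 32.9 CPM and 12.3 and 11.7 CPM (1.53 ± 0.07), and Relb at 15.7 and 16.8 CPM and 14.2 and 13.3 CPM (0.24 ± 0.08). All 3 were above their WT levels in both knock-out lines. Ccl2 was at 14.9 and 15.2 CPM in IKK2 KO cells and 1.6 and 1.95 CPM in p65 KO cells (3.07 ± 0.13), Cxcl1 at 8.5 and 8.73 CPM and 8.81 and 6.81 CPM (0.15 ± 0.12, adjusted p = 0.29), and Vcam1 at 126 and 125 CPM and 17 and 17.8 CPM (2.85 ± 0.05). Birc3 was at 6.27 and 4.83 CPM in IKK2 KO cells and 0.274 and 0.166 CPM in p65 KO cells (4.64 ± 0.28), on opposite sides of its WT level. Cdkn1a was at 31.9 and 33.3 CPM in IKK2 KO cells and 4.11 and 5.07 CPM in p65 KO cells (2.82 ± 0.09), and Fdps at 42.5 and 43.1 CPM and 18.4 and 16.9 CPM (1.28 ± 0.06). The chemokine list had a median of 2.42 in p65 KO over WT cells, the p53 list −1.07 and the cholesterol list 0.14, beside 3.79, −1.33 and 0.95 in IKK2 KO over WT cells.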

How the data were processed

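Paired-end RNA-seq reads of 76 bases came from total RNA of immortalised MEFs. The deposited table holds expected counts per gene for 18 libraries, made by the authors, and 31.81% of its non-zero values are fractional, so they were rounded to whole counts before testing, and a gene given as 0 counts is at 0 after rounding. Per the submitters' processing notes, reads were checked with FastQC 0.11.8 and handled with Trimmomatic, HISAT2 (GRCm38 build) and Subread 1.6.2, whose featureCounts is named, and edgeR 3.26.4 is named too. Neither the strand setting of the counting nor the treatment of multiply matching reads is given in the sources used here, so values of overlapping antisense genes such as Xist and Tsix, and of near-identical copies (histone and H2 genes), are uncertain. Symbols and positions came from GENCODE M21, in which all 55536 gene IDs were found.

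Genes were kept with filterByExpr (16322 genes, losing 0.0601% of counts) and TMM scaled the libraries. Tests were edgeR 4.0.16 quasi-likelihood F-tests with robust estimation, run in R 4.3.3 with limma 3.58.1, with 1 coefficient per group over all 18 libraries and Benjamini-Hochberg adjustment over all genes tested at 0.05. The biological coefficient of variation was 1.93%. Differences between line differences were contrasts of the same fit. DESeq2 1.42.0, other scalings, no filter, protein-coding genes alone, 4 libraries alone, a 1.2-fold null and leaving out each library were alternatives. Medians by chromosome over genes of at least 10 CPM were added after seeing the data. Library pairs were compared with counting error, and their chi-square per degree of freedom was 4.27 in untreated IKK2 KO and 2.08 in untreated WT cells. The floor for genes at 0 was 3 counts over the 2 libraries of a group, and floors and intervals cover counting error alone. Ratios with exact binomial 95% intervals are given for genes with up to 3 counts in a line and, a choice made after seeing the data, for genes near 0 with no count in 1 of its libraries.

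The comparison, the 40 gene lists and the tests were chosen with earlier results of these data known. Named genes were Ikbkb and Rela, the 12 largest changes in each direction with at least 2 CPM in the higher line, no overlap and a symbol that is not a predicted name, and the 4 largest CPM differences in each direction. List examples were up to 4 members with the largest changes, and further members were named for their role after their values were seen. Some list members are counted but not reported here by name. A simulation set all groups to the untreated WT levels and planted 50 genes at each fold in this contrast. It recovered 58, 86, 100 and 100% of genes planted at 1.2-, 1.5-, 2- and 4-fold, with 8 false calls of 180. In the data 12122 of 16322 genes passed, so these rates do not carry over to a contrast with that many differences. Promoters came from RefSeq (GRCm38.p6), and Python 3.11.15, pandas 2.3.3, scipy 1.17.1 and matplotlib 3.10.9 were used for tables and figures.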

Additional observations from a re-analysis of the deposited data

Results flagged for a closer look

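Over all 16322 genes tested, 45 (0.276%) were higher in IKK2 KO cells without TNF and lower at 45 min of TNFα, where both differences and their difference passed edgeR's quasi-likelihood test, and 22 (0.135%) did so at 90 min. The opposite turn was seen in 27 (0.165%) and 11 (0.0674%). Of the 274 named or example genes rechecked, 14 turned to lower and 1 to higher at one time or both, and these are given here. The values below are the difference of differences, the log2 change of IKK2 KO over WT under TNFα minus that without TNF. Each is given with its approximate standard error. The TNF libraries are not those of the untreated comparison. No cause was tested.

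Rela, the p65 gene, had a log2 change of 0.13 without TNF and −0.13 at 45 min, a difference of −0.26 ± 0.06 (adjusted p = 0.004). The untreated change of Rela was −0.05 under total-count scaling and 0.07 without the higher IKK2 KO library. It did not pass with DESeq2, so this turn is less firm than the others. Map3k14, the NIK gene, had a log2 change of 0.67 without TNF and −0.27 at 45 min, a difference of −0.94 ± 0.10 (adjusted p = 2.2e-09). Relb, the RelB gene, had a log2 change of 1.27 without TNF and −1.06 at 45 min, a difference of −2.32 ± 0.11 (adjusted p = 5.5e-20), and −0.31 at 90 min, a difference of −1.58 ± 0.11 (adjusted p = 1.9e-14). Rel, the c-Rel gene, had a log2 change of 0.73 without TNF and −0.39 at 45 min, a difference of −1.12 ± 0.07 (adjusted p = 1.3e-15). Nfkb2, the p100 gene, had a log2 change of 0.73 without TNF and −0.58 at 45 min, a difference of −1.31 ± 0.05 (adjusted p = 1.6e-22), and −0.19 at 90 min, a difference of −0.92 ± 0.05 (adjusted p = 1.4e-17). Tnfaip3, the A20 gene, had a log2 change of 1.99 without TNF and −1.90 at 45 min, a difference of −3.90 ± 0.08 (adjusted p = 3.3e-34). Nfkbia, the IκBα gene, had a log2 change of 1.43 without TNF and −1.0 at 45 min, a difference of −2.44 ± 0.07 (adjusted p = 1.2e-28), and −0.59 at 90 min, a difference of −2.03 ± 0.07 (adjusted p = 5.6e-24).

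Birc3, the cIAP2 gene, had a log2 change of 1.37 without TNF and −0.83 at 45 min, a difference of −2.20 ± 0.21 (adjusted p = 4.7e-11). Csf1, a macrophage growth factor gene, had a log2 change of 0.68 without TNF and −0.77 at 45 min, a difference of −1.45 ± 0.04 (adjusted p = 1e-30). Irf1, an interferon regulatory factor gene, had a log2 change of 1.55 without TNF and −1.50 at 45 min, a difference of −3.05 ± 0.11 (adjusted p = 2.2e-24). Lif, an interleukin-6 family gene, had a log2 change of 0.44 without TNF and −2.85 at 45 min, a difference of −3.28 ± 0.15 (adjusted p = 3.5e-21), and −1.40 at 90 min, a difference of −1.83 ± 0.13 (adjusted p = 1e-14). Tlr2, a bacterial lipoprotein receptor gene, had a log2 change of 0.99 without TNF and −1.42 at 45 min, a difference of −2.40 ± 0.17 (adjusted p = 5.6e-15), and −1.52 at 90 min, a difference of −2.50 ± 0.16 (adjusted p = 3.2e-15). Tnip1, a gene for a partner of A20, had a log2 change of 0.42 without TNF and −0.82 at 45 min, a difference of −1.24 ± 0.11 (adjusted p = 7.1e-12), and −0.68 at 90 min, a difference of −1.10 ± 0.10 (adjusted p = 1.8e-10). Zc3h12a, the endonuclease gene, had a log2 change of 0.71 without TNF and −0.92 at 45 min, a difference of −1.62 ± 0.16 (adjusted p = 1.1e-10).

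Pdgfrb, a PDGF receptor gene, went the other way. Its log2 change was −0.21 without TNF and 0.17 at 45 min, a difference of 0.38 ± 0.07 (adjusted p = 0.00036).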

How the results depend on the processing

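The number of genes that differed between untreated IKK2 KO and WT cells, 12122, stayed within 1.5 times under every alternative run: 12116 with DESeq2's size factors, 12219 with total counts, 12394 without a filter, 9888 for protein-coding genes alone, 12072 with 4 libraries alone, 9235 against a fold of 1.2, 10784 with DESeq2's Wald test, and 11107 to 11436 without 1 library. Total counts alone reversed Rela (−0.05), Col1a2 (−0.10) and Ldha (−0.14). Relative to all genes, the medians of chromosomes 3, 7 and 8 were 0.37, −0.56 and −0.43. Without a filter they were 0.07, −0.37 and −0.29, and over genes of at least 10 CPM, a choice made after seeing the data, 0.39, −0.47 and −0.47; the cause was not tested. Of 274 genes rechecked, 263 to 273 kept direction and side of the threshold under each alternative. No paired analysis was possible because the columns carry library codes that are in no label. Depth limits genes near 0 counts in a line, whose folds are bounds, ratios with wide intervals or fits that 1 library can move. Where all counts of a line come from 1 library (Cxcl1, Serpine2, Hoxc5, Megf10), leaving that library out puts the line at 0, and leaving out the other gave log2 changes of 7.23, −7.25, 8.11 and 10.09.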

Other observations

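The fibroblast identity list had 9 higher and 5 lower genes of 14, with a median log2 change of 0.26. Prrx1, a mesenchymal homeobox gene, was at 259 and 253 CPM in IKK2 KO cells, against 129 and 128 CPM in WT cells (1.0 ± 0.03), and Twist2 changed by 0.57 ± 0.05, whereas its relative Twist1 changed by −0.45 ± 0.07. Pdgfra (0.28 ± 0.08) and Pdgfrb (−0.21 ± 0.05), the PDGF receptors of fibroblasts, differed little and in opposite directions. Gli1, a hedgehog target, was at 2.05 and 1.8 CPM in IKK2 KO cells, against 5.83 and 4.93 CPM in WT cells (−1.46 ± 0.20).

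Members of the YAP target list differed in opposite directions. Ankrd1 was at 490 and 480 CPM in IKK2 KO cells, against 150 and 162 CPM in WT cells (1.64 ± 0.03) and Fjx1 at 10.7 and 10.8 CPM in IKK2 KO cells, against 2.03 and 1.97 CPM in WT cells (2.43 ± 0.15). Ccn1 (0.25 ± 0.02) was higher, whereas its relative Ccn2 was lower at 679 and 653 CPM in IKK2 KO cells, against 1150 and 1180 CPM in WT cells (−0.80 ± 0.03), as was Crim1 at 109 and 111 CPM in IKK2 KO cells, against 320 and 315 CPM in WT cells (−1.53 ± 0.03). Among drug-metabolism and antioxidant genes outside those described, Gsta4 was at 5.82 and 5.94 CPM in IKK2 KO cells, against 0.812 and 0.657 CPM in WT cells (3.01 ± 0.21), Mt2 at 15.1 and 15.7 CPM in IKK2 KO cells, against 3.6 and 4.15 CPM in WT cells (1.98 ± 0.12) and the extracellular dismutase gene Sod3 at 1.31 and 1.67 CPM in IKK2 KO cells, against 31.1 and 33.6 CPM in WT cells (−4.44 ± 0.14).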
